A study of Homo sapiens with 12 samples.

Results

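The genes that make, break down and sense prostaglandin E2 were examined in lung cancer cells with and without overexpression of ZNF263, a zinc finger transcription factor. The 7 genes were PTGS1, PTGS2, PTGES, PTGES2, HPGD, PTGER2 and PTGER4, out of 20003 genes in the expression table. They were chosen by name with their differences between ZNF263 and control vector already known, so these differences are described and not tested. Expression was measured by RNA-seq of total RNA in PC9, HCC827 and H1975, which are established lines of human non-small-cell lung cancer with activating mutations of EGFR. In each line ZNF263 was overexpressed from a vector and compared with control vector, and each of the 6 groups had 2 libraries, 12 in all. Every culture, controls included, was kept in DMEM and received osimertinib, an inhibitor of mutant EGFR, in steps. The sample titles add OR to each line's name, which the labels do not explain. The sources used here give neither the promoter of the vector, nor the drug concentrations, nor whether a line was 1 clone. Nothing in the labels says that the libraries of a group came from separate cultures, so each p-value reflects spread between libraries alone, which may be technical.

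Prostaglandin E2 is a short-lived lipid messenger made from arachidonic acid. Cyclooxygenases (PTGS1, the mostly constitutive COX-1, and PTGS2, the inducible COX-2) convert arachidonic acid to prostaglandin H2, which prostaglandin E synthases such as PTGES turn into prostaglandin E2. HPGD oxidises and so inactivates it. The receptors EP2 (PTGER2) and EP4 (PTGER4) couple to Gs proteins and raise cyclic AMP in the receiving cell. In lung cancer, COX-2 is often raised and HPGD often reduced.

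The largest difference among the 7 genes was in H1975, where PTGS2 was 14.4-fold lower with ZNF263 than with the control vector. In the same line PTGES was 1.78-fold higher and HPGD, at a low level, was 1.77-fold higher. PTGS2 was also lower in PC9, by 1.73-fold, whereas in HCC827 both ZNF263 libraries lay above both control libraries. That difference in HCC827 was not called. HPGD was higher in the ZNF263 libraries of all 3 lines, and PTGES2, PTGS1 and PTGER4 were called in none of them.

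Values are given in FPKM, fragments scaled by gene length and library size, so that levels of different genes in 1 library can be compared. A log2 difference is ZNF263 minus control on the log2(FPKM + 1) scale with its standard error (SE) from limma, a linear model fitted to all genes. The added 1 makes a difference in a gene of low level look smaller than it is. A gene was called when its limma adjusted p was under 0.05. Transfer of the vector was checked first: ZNF263 stood at 9.55 and 9.11 FPKM in the PC9 control libraries and at 39.3 and 39.0 FPKM in the ZNF263 libraries. In H1975 it went from 10.2 and 9.63 to 39.1 and 39.8 FPKM, and in HCC827 only from 13.2 and 11.8 to 19.6 and 19.8 FPKM. The number of genes at 1 FPKM or more ranged from 10672 to 10997 over the libraries.

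Of the 7 genes, 6 passed the filter of at least 1 FPKM in 2 or more libraries, and PTGER2 did not. In PC9, 1 of the 6 was called, PTGS2, which was lower, where 11.3% of all 12623 genes tested were called, 7.21% higher and 4.12% lower. In HCC827, 1 of the 6 was called, HPGD, which was higher, where 19.5% of 12266 genes were called and 13.0% were called higher. In H1975, 3 of the 6 were called, PTGES and HPGD higher and PTGS2 lower, where 64.2% of 12258 genes were called, 32.1% in each direction. The groups of 2 libraries did not overlap for 4, 3 and 3 of the 6 genes in PC9, HCC827 and H1975, and for 57.7%, 53.9% and 82.5% of all genes tested. The median log2 difference of the 6 genes was 0.06 in PC9, 0.12 in HCC827 and 0.01 in H1975, beside medians of 0, 0.04 and 0.00 over all genes. As the genes were chosen on these same contrasts, nothing is read from the counts.

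**Figure D1:**
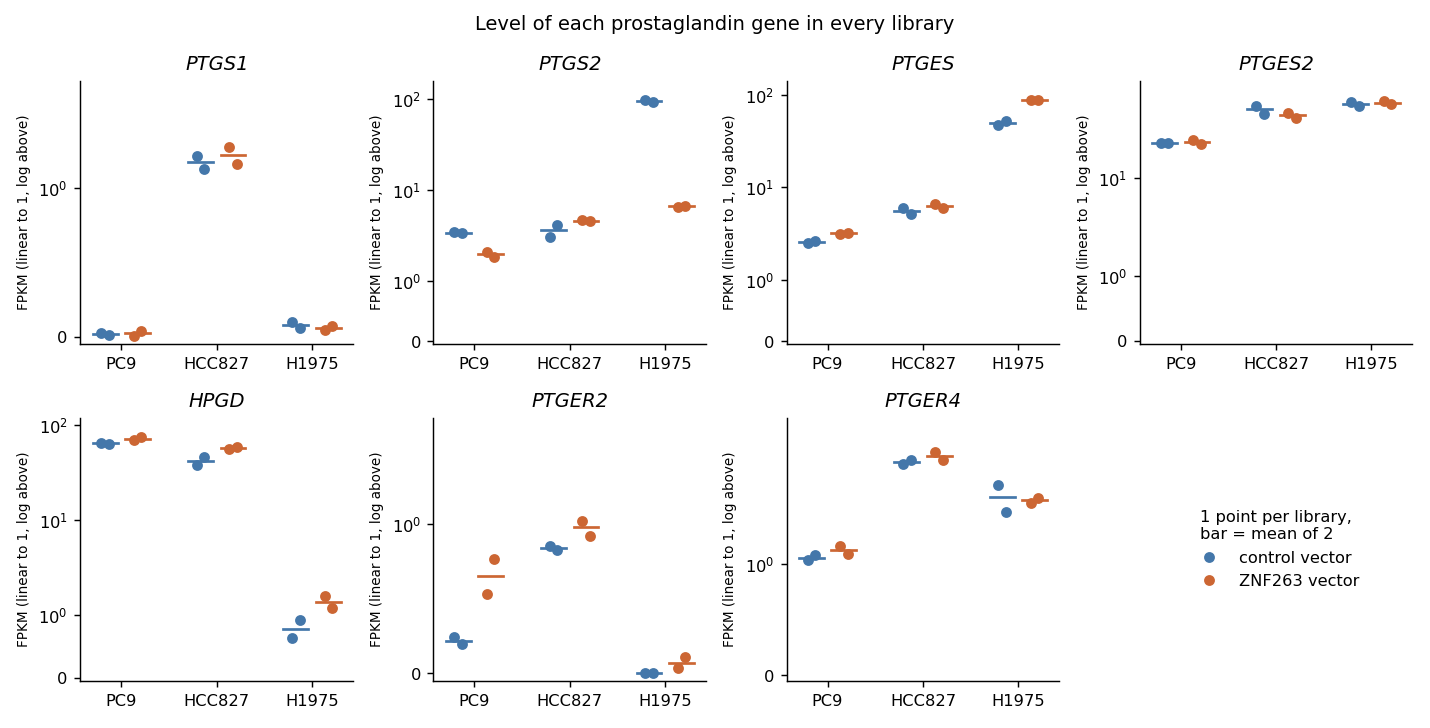
FPKM of each of the 7 genes in every library, 1 point per library and a bar at the mean of 2, by line and vector, on an axis that is linear to 1 FPKM and logarithmic above. PTGS2 in H1975 stands at 97.4 and 91.1 FPKM with the control vector and at 6.44 and 6.61 FPKM with ZNF263, while PTGES there stands at 47.2 and 51.4 and at 87.5 and 87.9 FPKM.

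The bases upstream of PTGS2, PTGES and HPGD are shown because, of the 6 genes that passed the filter, these are the 3 that were called in at least 1 line. Each is the 250 bases before a start site in RefSeq (GRCh38.p14), written 5′ to 3′ on the gene's own strand, which is the minus strand for all 3. Capitals mark matches to any of 5 short motifs, searched on both strands.

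PTGS2, chr1:186680424-186680673: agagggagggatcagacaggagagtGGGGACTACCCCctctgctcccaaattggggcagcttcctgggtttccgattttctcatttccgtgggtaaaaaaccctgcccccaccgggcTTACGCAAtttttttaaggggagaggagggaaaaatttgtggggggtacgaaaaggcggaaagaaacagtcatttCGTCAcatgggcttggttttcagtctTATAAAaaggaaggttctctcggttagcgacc
PTGES, chr9:129753043-129753292: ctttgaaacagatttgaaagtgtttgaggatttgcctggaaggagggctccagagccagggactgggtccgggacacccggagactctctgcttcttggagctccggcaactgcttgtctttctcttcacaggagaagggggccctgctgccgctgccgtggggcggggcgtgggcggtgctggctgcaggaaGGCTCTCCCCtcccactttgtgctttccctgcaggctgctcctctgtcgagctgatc
HPGD, chr4:174522489-174522738: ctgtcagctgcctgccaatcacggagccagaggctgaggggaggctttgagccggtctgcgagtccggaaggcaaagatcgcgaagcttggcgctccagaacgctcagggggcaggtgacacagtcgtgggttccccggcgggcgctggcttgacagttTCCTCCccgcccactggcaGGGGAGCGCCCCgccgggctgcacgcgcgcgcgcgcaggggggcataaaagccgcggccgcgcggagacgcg

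The motifs were GGAGGA, a repeat within the G-rich element known for ZNF263, TTNNGNAA for C/EBP factors, CGTCA for the core of a cyclic AMP response element, GGGNNNNNCC for NF-kappaB, and TATAAA. Positions are counted back from the start site, whose preceding base is -1. The PTGS2 window holds the C/EBP-like motif at -133 to -126, CGTCA at -58 to -54, a run of overlapping NF-kappaB-like matches between -225 and -214, and TATAAA at -32 to -27. GGAGGA is not among its letters. The PTGES window holds 1 NF-kappaB-like match, at -57 to -48, and the HPGD window holds GGAGGA on the opposite strand at -91 to -86 and overlapping NF-kappaB-like matches from -72 to -61. HPGD has a second listed start, whose window held 1 CGTCA and no GGAGGA. The 7 genes have 11 listed start sites, and of these 11 windows 3 held GGAGGA, 3 TTNNGNAA, 3 CGTCA, 9 GGGNNNNNCC and 2 TATAAA. Among all 35116 windows of the same length, the shares with each motif were 31.8%, 33.2%, 21.2%, 54.4% and 10.7%. A match is a description of the letters only, and binding was not measured here.

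The cyclooxygenases stood far apart. PTGS2 lies on chromosome 1 at 186671791 to 186680427 on the minus strand (GRCh38, as are all positions below) and encodes COX-2. In H1975 it stood at 97.4 and 91.1 FPKM in the control libraries and at 6.44 and 6.61 FPKM in the ZNF263 libraries. Both control libraries were far above both ZNF263 libraries, and the spread within each pair was small beside the gap. The means were 94.2 ± 4.48 and 6.53 ± 0.117 FPKM (SD, n = 2) and the log2 difference was -3.66 ± 0.096 (SE). Of the 12258 genes tested in H1975, 3 had a lower difference. In bulk RNA, fewer cells that express a gene and less RNA per cell cannot be told apart. Between 986 and 15157 reads stood behind each value, as recovered from the steps between FPKM values, and these cover counting only.

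In PC9, PTGS2 stood at 3.39 and 3.32 FPKM with the control vector and at 2.07 and 1.82 FPKM with ZNF263. The groups did not overlap, and the log2 difference was -0.57 ± 0.096 (SE), with 56 of 12623 genes lower. In HCC827 the control libraries held 3.03 and 4.11 FPKM and the ZNF263 libraries 4.66 and 4.46 FPKM. The ZNF263 libraries were the higher ones here, by 0.29 ± 0.096 on the log2 scale, which was not called. That value rested on the lower control library: without control library 1 it was 0.12, and without control library 2 it was 0.46. The direction in HCC827 was thus the opposite of that in the other two lines.

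With the control vector, H1975 held 26.4 times as much PTGS2 as HCC827, while HCC827 and PC9 overlapped. With ZNF263, H1975 was still the highest, by 1.43-fold over HCC827, and no 2 lines overlapped. The FPKM worth of 1 read kept 1 ratio between HCC827 and H1975 but not between PC9 and HCC827, so whether PC9 values were scaled by the same gene lengths is unknown, and levels were not tested between lines.

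PTGS1 encodes COX-1 and lies on chromosome 9 at 122370530 to 122395703 on the plus strand. It was expressed above 1 FPKM in HCC827 alone, at 1.39 and 1.21 FPKM with the control vector and 1.52 and 1.28 FPKM with ZNF263. The groups overlapped, with a log2 difference of 0.06 ± 0.071 (SE). In H1975 the gene did not exceed 0.102 FPKM (22 reads) and in PC9 it did not exceed 0.0382 FPKM (7 reads), so differences there were not detectable at this depth. PTGS1 made up 27.1% ± 6.08 (SD, n = 2) of the summed PTGS1 and PTGS2 FPKM in HCC827 controls and 23.5% ± 1.66 with ZNF263. In H1975 its share was 0.0856% ± 0.0274 with the control vector and 0.892% ± 0.231 with ZNF263, the PTGS2 level having been lower. COX-2 mRNA was therefore the larger part of the cyclooxygenase mRNA in each of the 6 groups.

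PTGES encodes the inducible microsomal prostaglandin E synthase that is commonly coupled to COX-2, and lies on chromosome 9 at 129738331 to 129753047 on the minus strand. In H1975 it stood at 47.2 and 51.4 FPKM in the control libraries and at 87.5 and 87.9 FPKM in the ZNF263 libraries. It was therefore higher where PTGS2 was lower, with no overlap and a log2 difference of 0.82 ± 0.077 (SE), with 2849 or more reads in each library. The 20 tested genes nearest to it had a median difference of 0.19, and less this median the difference of PTGES was 0.63. In PC9 the values were 2.46 and 2.60 FPKM with the control vector and 3.10 and 3.21 FPKM with ZNF263. They did not overlap and differed by 0.23 ± 0.077, which was not called, and less the median of the neighbours by 0.15. In HCC827 the control libraries at 6.01 and 5.14 FPKM overlapped the ZNF263 libraries at 6.58 and 5.88 FPKM. The control levels were ordered H1975 over HCC827 by 8.84-fold and HCC827 over PC9 by 2.20-fold, without overlap. Levels were not tested between lines, and whether PC9 was scaled by the same gene lengths is unknown.

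PTGES2, a second membrane-associated prostaglandin E synthase that is widely expressed, lies on chromosome 9 at 128120693 to 128128462 on the minus strand. Its 12 values lay between 22.4 and 61.0 FPKM. The groups overlapped in every line, with log2 differences of 0.04 ± 0.087 (SE) in PC9, -0.19 ± 0.087 in HCC827 and 0.06 ± 0.087 in H1975. In HCC827 it was -0.32 without control library 2 and -0.05 without control library 1. In H1975 the control libraries held 1.15 ± 0.146 (SD, n = 2) times as much PTGES2 as PTGES, and the ZNF263 libraries 0.672 ± 0.0373 times as much. PTGES was thus the more abundant of the 2 synthases in H1975 with ZNF263. In PC9 and HCC827 PTGES2 exceeded PTGES in all 8 libraries, by 6.97-fold or more.

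HPGD encodes 15-hydroxyprostaglandin dehydrogenase, which starts the breakdown of prostaglandins, and lies on chromosome 4 at 174490177 to 174523154 on the minus strand. In HCC827 it stood at 38.0 and 45.3 FPKM with the control vector and at 55.6 and 58.3 FPKM with ZNF263. Both ZNF263 libraries lay above both controls, and the log2 difference was 0.45 ± 0.10 (SE), a 1.37-fold higher mean. The call was lost without HCC827 control library 1, where the difference was 0.32, and without ZNF263 library 2, where it was 0.41. In PC9 the values were 63.8 and 63.5 FPKM in controls and 68.4 and 74.2 FPKM with ZNF263, a difference of 0.16 ± 0.10 with no overlap that was not called. In H1975 HPGD was scarce: 0.629 and 0.919 FPKM in controls and 1.57 and 1.18 FPKM with ZNF263, from 94, 127, 230 and 174 reads. The groups did not overlap and differed by 0.42 ± 0.10. The 20 nearest tested genes had a median difference of 0.29 in H1975, which left 0.13 for HPGD less that median. H1975, the highest line for PTGS2 and PTGES, was the lowest for HPGD. In controls PC9 stood 1.53-fold over HCC827 and HCC827 53.8-fold over H1975, without overlap. Whether PC9 was scaled by the same gene lengths is unknown, and levels were not tested between lines.

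**Figure D2:**
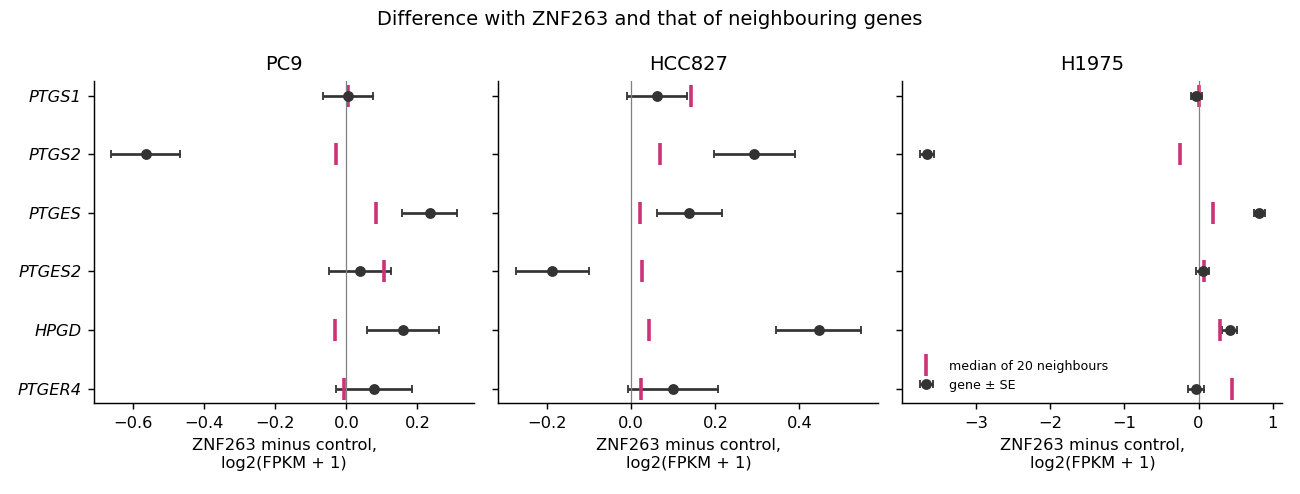
Log2 difference, ZNF263 minus control on the log2(FPKM + 1) scale, for the 6 genes that passed the filter in each line (dots, bars ± limma SE), with the median difference of the 20 nearest tested genes on the same chromosome (vertical ticks), and with a different axis range in each line. PTGS2 in H1975 stands at -3.66 against a neighbours' median of -0.24, while HPGD in H1975 at 0.42 lies near its neighbours' median of 0.29.

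The receptors were expressed at low levels. PTGER4, the EP4 receptor, lies on chromosome 5 at 40679498 to 40693735 on the plus strand, within the span of TTC33 on the other strand. A strand setting is not given in the sources used here, so reads of both genes may not be told apart. In PC9 it stood at 1.06 and 1.13 FPKM with the control vector and at 1.28 and 1.14 FPKM with ZNF263, and in HCC827 at 3.99 and 4.18 and at 4.71 and 4.20 FPKM. These pairs did not overlap but came within 0.02 FPKM of doing so, and the log2 differences were 0.08 ± 0.11 (SE) and 0.10 ± 0.11. In H1975 the control libraries held 2.99 and 2.06 FPKM and enclosed the ZNF263 libraries at 2.33 and 2.49 FPKM. The neighbours of PTGER4 had a median difference of 0.45 in H1975, while PTGER4 itself stood at -0.04 ± 0.11.

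PTGER2, the EP2 receptor, lies on chromosome 14 at 52314305 to 52328606 on the plus strand and was below the filter. In PC9 it was listed at 0.246 and 0.194 FPKM with the control vector and at 0.532 and 0.771 FPKM with ZNF263. The smallest whole read numbers for these were 6, 5, 12 and 18, and the true ones may be a multiple of them. In HCC827 the values were 0.856 and 0.827 FPKM and then 1.04 and 0.920 FPKM, from 38, 35, 45 and 40 reads. In H1975 both control libraries were listed at 0, which allows up to 0.0354 and 0.0382 FPKM (3 reads), and the ZNF263 libraries at 0.0360 and 0.107 FPKM, from 3 and 9 reads. The ZNF263 libraries were the higher ones in each line, but 1 of them was at the limit that a count of 0 allows. As listed, HCC827 held the most PTGER2 and PTGER4 of the 3 lines in both groups. Whether PC9 was scaled by the same gene lengths is unknown, and levels were not tested between lines.

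Set against each other within a library, these levels gave a balance between synthesis and breakdown that differed by line. In H1975 controls PTGS2 exceeded HPGD by 154.8-fold and 99.1-fold, and with ZNF263 by 4.12-fold and 5.62-fold. PTGS2 stayed above HPGD in all 4 libraries of that line, but the ratio did not overlap between the groups. In PC9 the opposite held: HPGD exceeded PTGS2 by 19.0-fold ± 0.224 (SD, n = 2) in controls and by 36.9-fold ± 5.43 with ZNF263. In HCC827 HPGD exceeded PTGS2 by 11.8-fold ± 1.05 and 12.5-fold ± 0.783, and the groups overlapped. PTGES relative to PTGS2 went from 0.524 ± 0.0569 to 13.4 ± 0.191 in H1975 and from 0.755 ± 0.0425 to 1.63 ± 0.190 in PC9. In HCC827 it was 1.62 ± 0.516 and 1.37 ± 0.0681, and the groups overlapped. These are ratios of mRNA levels, and prostaglandins were not measured here.

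**Figure D3:**
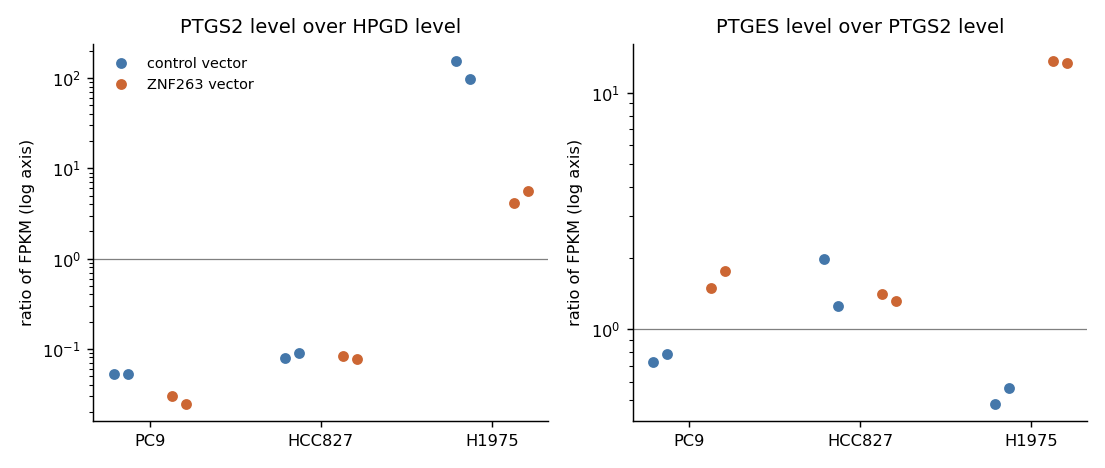
Ratio of PTGS2 to HPGD (left) and of PTGES to PTGS2 (right), both in FPKM within 1 library on a log axis, 1 point per library by line and vector. The H1975 controls stand at 154.8 and 99.1 for PTGS2 over HPGD and the ZNF263 libraries at 4.12 and 5.62, while the HCC827 groups overlap in both panels.

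From a list of 41 other genes of the pathway, those that passed the filter were tested gene by gene. This list was also chosen with earlier results of these data known, so its counts and p-values are descriptive. The same holds for the lists that follow. In PC9, 24 were tested, of which 3 rose, 1 fell and 20 did not pass, a share called of 16.7%. In HCC827, 22 were tested, of which 2 rose, 1 fell and 19 did not pass (13.6%). In H1975, 22 were tested, of which 10 rose, 6 fell and 6 did not pass (72.7%). Beside shares of 11.3%, 19.5% and 64.2% over all genes, these counts stood near the background of each line. The medians of the tested genes were 0.06, 0.04 and 0.07. Over all 12218 genes with a value in every line, the difference varied between lines for 60.3% (limma F test, adjusted p under 0.05).

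Among genes of arachidonate release, 4 of 10 tested rose and 2 fell in H1975, where 32.1% of all genes rose and 32.1% fell. PLA2G4A, the cytosolic phospholipase A2 that frees arachidonic acid from membranes, fell in H1975 from 6.58 ± 0.067 to 3.26 ± 0.184 FPKM (SD, n = 2), a log2 difference of -0.83 ± 0.13 (SE, limma adjusted p = 0.000127). In PC9 it fell from 24.2 ± 1.26 to 16.2 ± 2.43 FPKM (-0.56 ± 0.13, adjusted p = 0.0173), but it did not pass there without any 1 of 3 PC9 libraries, control 1, control 2 or ZNF263 library 1 (adjusted p from 0.0776 to 0.186). In HCC827 the values overlapped, at 1.12 ± 0.341 and 1.35 ± 0.439 FPKM. PLA2G4A lies on chromosome 1 at 186828953 to 186988981, 148.5 kb from PTGS2, and shares its neighbours' median of -0.24 in H1975. MGLL, the monoacylglycerol lipase that also supplies arachidonic acid, fell in H1975 from 49.0 to 17.7 FPKM (-1.42 ± 0.068, adjusted p = 1.67e-09) and rose in PC9 from 24.6 to 31.2 FPKM (0.33 ± 0.068, adjusted p = 0.00719). That rise did not pass without PC9 control library 2 (adjusted p = 0.0668) or ZNF263 library 1 (0.0862).

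In the opposite direction, ACSL4, which activates arachidonic acid for storage in membrane lipids, rose in H1975 from 31.9 to 65.9 FPKM (1.02 ± 0.074, adjusted p = 8.57e-08). Its neighbours had a median difference of 0.76. DAGLA, a diacylglycerol lipase, rose in H1975 from 0.412 to 1.39 FPKM (0.76 ± 0.071, adjusted p = 8.87e-07) and fell in HCC827 from 5.09 to 4.13 FPKM (-0.25 ± 0.071, adjusted p = 0.0296). The fall in HCC827 did not pass without any 1 of that line's 4 libraries (adjusted p from 0.0543 to 0.115).

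Among the pathway genes tested in H1975, 2 aldo-keto reductases rose most. AKR1C3, which makes prostaglandin F2alpha from prostaglandin H2, rose in H1975 from 6.05 ± 0.0319 to 69.9 ± 1.69 FPKM (SD, n = 2). The log2 difference was 3.33 ± 0.072 (SE, limma adjusted p = 4.06e-12). AKR1C3 rose in HCC827 from 4.34 to 6.09 FPKM (0.41 ± 0.072, adjusted p = 0.00189), a call lost in a fit on HCC827 alone (adjusted p = 0.0991). In PC9, where it was most abundant, it stood at 678.7 and 742.9 FPKM (0.13 ± 0.072, adjusted p = 0.298). AKR1C3 has close paralogs, among which its reads may have been split. AKR1B1, aldose reductase, which also forms prostaglandin F2alpha, rose in H1975 from 433.9 ± 18.2 to 2700.2 ± 138.2 FPKM (2.63 ± 0.10, adjusted p = 2.73e-10) and did not pass in PC9 (-0.03) or HCC827 (-0.11). PTGES3, the cytosolic synthase and HSP90 co-chaperone, was singled out after its values were seen: it fell in H1975 from 156.3 and 151.7 to 104.8 and 104.9 FPKM (-0.55 ± 0.052, adjusted p = 9.72e-07).

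All 6 genes of prostaglandin transport and reduction were called in H1975, 4 higher and 2 lower, beside 64.2% of all genes. PTGR1, a reductase that inactivates 15-keto-prostaglandins, the products of HPGD, rose from 29.6 to 58.8 FPKM (0.96 ± 0.071, adjusted p = 1.02e-07). PTGR3 rose from 3.19 to 5.26 FPKM (0.58 ± 0.088, adjusted p = 7.92e-05), and PTGR2, a reductase of the same substrates, fell from 8.57 to 4.54 FPKM (-0.79 ± 0.096, adjusted p = 1.08e-05). The medians of their neighbours in H1975 were 0.06 for PTGR1, 0.27 for PTGR3 and -0.38 for PTGR2. PTGR1 also rose in PC9, from 218.8 to 259.1 FPKM (0.24 ± 0.071, adjusted p = 0.0474), a call that was lost without any 1 of PC9 control library 1, control library 2, ZNF263 library 2 or the 4 H1975 libraries (adjusted p from 0.0668 to 0.298). Of the 7 other prostanoid receptors only PTGER1 was tested, and in H1975, its highest line, it stood at 1.35 and 1.33 FPKM with the control vector and 0.980 and 1.66 FPKM with ZNF263, which overlapped. The remaining 6 had no value above 0.876 FPKM in any library.

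**Figure D4:**
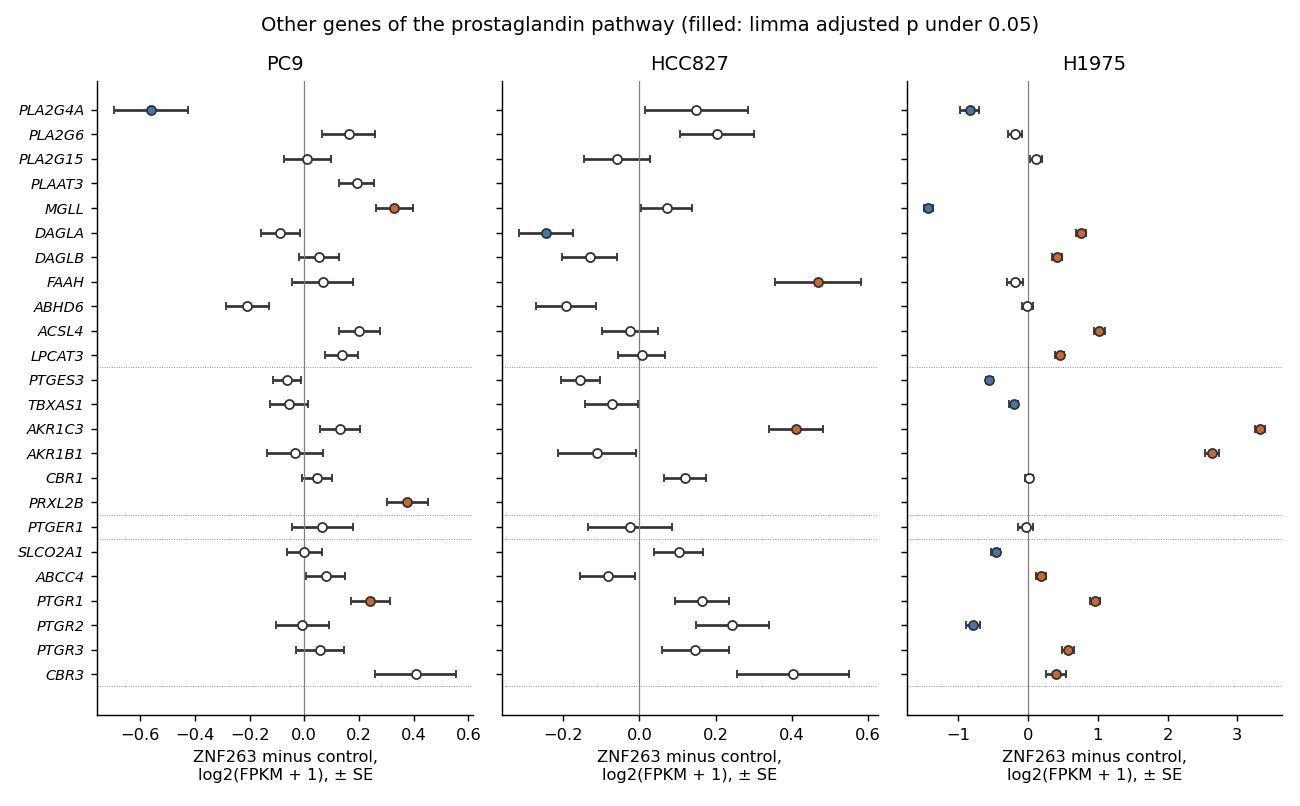
Log2 difference, ZNF263 minus control on the log2(FPKM + 1) scale, of the other prostaglandin-pathway genes tested in each line (points, bars ± limma SE, filled where the limma adjusted p was under 0.05), in the order arachidonate release, other synthases, receptors, transport and reduction, with a different axis range in each line. AKR1C3 at 3.33 and AKR1B1 at 2.63 lie far to the right in H1975, where MGLL at -1.42 is the lowest point.

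The lipoxygenase branch, which uses the same arachidonic acid, had 7 genes tested in each line. In H1975, 3 fell and 4 did not pass, where 32.1% of all genes fell. In HCC827, 2 rose and 2 fell, beside 13.0% and 6.44% of all genes. ALOXE3, an epidermal-type lipoxygenase, fell in H1975 from 3.93 to 0.492 FPKM (-1.72 ± 0.084, limma adjusted p = 2.00e-09) and in HCC827 from 1.72 to 0.727 FPKM (-0.65 ± 0.084, adjusted p = 0.00025). ALOX5AP, the activating protein of 5-lipoxygenase, fell in HCC827 from 1.01 to 0.190 FPKM (-0.76 ± 0.17, adjusted p = 0.00831), a call lost without HCC827 ZNF263 library 2 (adjusted p = 0.0604).

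Downstream of EP2 and EP4, 25 genes of the Gs and cyclic AMP relay were tested in each line. In H1975, 10 rose, 6 fell and 9 did not pass, in HCC827, 6 rose and 2 fell, and in PC9, 2 rose and 3 fell. The shares of all genes called were 64.2%, 19.5% and 11.3% in that order. PKIB, an inhibitor of protein kinase A, fell in all 3 lines: from 17.4 to 1.75 FPKM in H1975 (-2.74 ± 0.090, limma adjusted p = 6.65e-11), from 14.2 to 9.54 FPKM in HCC827 (-0.53 ± 0.090, adjusted p = 0.00154) and from 2.30 to 0.888 FPKM in PC9 (-0.80 ± 0.090, adjusted p = 8.79e-05). AKAP12, a scaffold that anchors protein kinase A, fell in H1975 (-2.15 ± 0.080, adjusted p = 1.92e-10) and in PC9 (-0.88 ± 0.080, adjusted p = 1.70e-05). In HCC827 it rose by 0.29 ± 0.080 (adjusted p = 0.0231), a rise that did not pass without HCC827 control library 1 (adjusted p = 0.0712) or ZNF263 library 2 (0.14).

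PRKACA, a catalytic subunit of protein kinase A, rose in H1975 from 25.3 to 46.5 FPKM (0.86 ± 0.065, limma adjusted p = 1.35e-07), where the median of its neighbours was 0.64. The phosphodiesterases, which degrade cyclic AMP, went both ways. PDE4A rose in H1975 (0.99 ± 0.085, adjusted p = 4.28e-07), where its neighbours had a median of 0.54, and fell in PC9 (-0.57 ± 0.085, adjusted p = 0.00082). PDE7A fell in H1975 (-1.16 ± 0.069, adjusted p = 1.37e-08) and rose in HCC827 (0.26 ± 0.069, adjusted p = 0.0191), the last a call lost without any 1 of HCC827 control library 1, ZNF263 library 1 or ZNF263 library 2 (adjusted p from 0.061 to 0.108). ATF1, a factor that binds cyclic AMP response elements, fell in H1975 from 10.05 to 5.005 FPKM (-0.88 ± 0.087, adjusted p = 1.66e-06), where its neighbours had a median of -0.63.

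Of 15 genes listed for the response to cyclic AMP, most of them known to be induced by it, 9 were tested in each line. In H1975, 6 fell, 1 rose and 2 did not pass, with a median log2 difference of -0.61. Of all genes in that line 32.1% fell, and their median was 0.00. AREG, a ligand of EGFR that is also induced through EP receptors, fell in H1975 from 31.5 ± 4.95 to 9.55 ± 0.818 FPKM (SD, n = 2), a difference of -1.62 ± 0.10 (SE, limma adjusted p = 2.22e-08). GEM (-0.89 ± 0.12, adjusted p = 3.05e-05), SIK1 (-0.86 ± 0.094, adjusted p = 3.97e-06) and RGS2 (-0.84 ± 0.16, adjusted p = 0.00062) also fell there. The medians of their neighbours were -0.45, 0.11 and -0.16 in that order, and 0.26 for AREG. DUSP1, a phosphatase of MAP kinases, fell by 0.61 ± 0.17 on the log2 scale (adjusted p = 0.00716), which did not pass without H1975 ZNF263 library 1 (adjusted p = 0.0549). Of all genes, 11.3% were called in PC9 and 19.5% in HCC827, and 4.12% and 6.44% were called lower. Beside these shares, 1 of the 9 was called in each of those lines, and both fell. In HCC827 it was GEM (-0.38 ± 0.12, adjusted p = 0.0443), which did not pass without any 1 of the 4 HCC827 libraries (adjusted p from 0.0516 to 0.279), and it was likewise lost without either ZNF263 library of PC9 or of H1975.

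Of the regulators of PTGS2 transcription and mRNA decay, 16 were tested in each line. In H1975, 6 rose, 3 fell and 7 did not pass, in HCC827, 2 rose and 3 fell, and in PC9, 1 rose and 4 fell, beside the same shares of all genes (64.2%, 19.5% and 11.3%). CEBPD, a C/EBP factor known as an activator of PTGS2, rose from 57.2 to 115.7 FPKM in H1975 (1.002 ± 0.053, limma adjusted p = 4.83e-09) and from 26.3 to 39.7 FPKM in PC9 (0.58 ± 0.053, adjusted p = 1.93e-05). In HCC827 CEBPD went from 61.6 to 68.7 FPKM (0.16 ± 0.053, adjusted p = 0.0585), called with quantile normalization (0.0423) or the replicate block (0.0481). The CEBPD mean was thus higher with ZNF263 in all 3 lines, and a link to the PTGS2 differences was not tested. EGR1, an immediate-early factor, rose in H1975 from 5.61 to 11.3 FPKM (0.89 ± 0.14, adjusted p = 8.74e-05) and in HCC827 from 17.2 to 24.7 FPKM (0.53 ± 0.14, adjusted p = 0.018). The rise in HCC827 did not pass without HCC827 control library 1 (0.23, adjusted p = 0.0933), ZNF263 library 1 (0.0748) or ZNF263 library 2 (0.0933). IL1A, a cytokine that induces PTGS2, fell in H1975 from 2.68 to 0.426 FPKM (-1.37 ± 0.065, adjusted p = 1.71e-09), where its neighbours had a median of -0.42.

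Of 8 regulators of HPGD and PTGES, 3 rose and 3 fell in H1975, where 64.2% of all genes were called. FOXA2, a forkhead factor of lung epithelium, fell there from 7.14 to 0.794 FPKM (-2.18 ± 0.10, limma adjusted p = 1.88e-09), and FOXA1 fell from 1.40 to 0.339 FPKM (-0.84 ± 0.12, adjusted p = 5.00e-05). Both rose in HCC827, FOXA2 by 0.45 ± 0.10 (adjusted p = 0.00993) and FOXA1 by 0.45 ± 0.12 (adjusted p = 0.022). Those 2 rises did not pass without HCC827 ZNF263 library 1 (adjusted p = 0.108 and 0.193), that of FOXA2 also not without control library 2 (0.0566), and that of FOXA1 also not without control library 1 (0.143). SNAI2, a repressor of epithelial genes that is known to repress HPGD, fell in H1975 from 41.8 to 23.9 FPKM (-0.78 ± 0.12, adjusted p = 6.00e-05) and in HCC827 from 9.26 to 5.70 FPKM (-0.63 ± 0.12, adjusted p = 0.00246), the latter lost in a fit on HCC827 alone (adjusted p = 0.0705). ZEB1, another such repressor, rose in H1975 from 1.29 to 3.29 FPKM (0.90 ± 0.095, adjusted p = 2.74e-06), as did TGFB1 (0.58 ± 0.082, adjusted p = 4.04e-05), from 13.3 to 20.3 FPKM. The medians of their neighbours were 0.35 for ZEB1 and 0.01 for TGFB1.

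Markers of cell type moved with these differences in H1975, and their part in the prostaglandin genes was not tested. All 8 epithelial markers stood above 1 FPKM in H1975, and their summed level went from between 4253 and 4257 FPKM in controls to between 1910 and 1926 FPKM with ZNF263, with 7 lower and 1 higher by call. EPCAM, an adhesion molecule of epithelial cells, went from 225 to 31.7 FPKM, and CDH1, E-cadherin, from 66.6 to 13.4 FPKM. The sum over 10 fibroblast markers went from between 30.9 and 34.3 to between 175.6 and 179.9 FPKM, of which COL1A2 made up 166 FPKM, while COL1A1 fell from 15.9 to 9.28 FPKM and PDGFRA and THY1 were at 0 with ZNF263. In PC9, 4 of 8 epithelial markers reached 1 FPKM (CDH1, KRT8, KRT18 and KRT7), with EPCAM at 0.291 and 0.251 FPKM, and their sum went from between 2786 and 2810 to between 3958 and 4192 FPKM. In HCC827 the epithelial sums were 3739 to 4220 and 3344 to 3583 FPKM. The fibroblast sums were 6.70 to 7.52 FPKM in PC9 and 20.7 to 23.7 FPKM in HCC827, with COL1A2 listed at 0 in every PC9 library. The sums over 12 immune markers were 3.75 to 4.35 and then 4.36 to 4.60 FPKM in PC9, 43.7 to 45.1 and then 32.8 to 38.9 FPKM in HCC827, and 89.2 to 90.4 and then 81.2 to 87.5 FPKM in H1975. The immune markers with a mean of 1 FPKM or more were the same with either vector. They were CD68 in PC9, CD68 and CSF1R in HCC827, and CD14, CD68 and CSF1R in H1975. PTPRC, the defining leukocyte marker, was at most 0.0458 FPKM in any library, and the sums over 8 endothelial markers were at most 0.856 FPKM.

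Genes whose pattern was most like that of a member were sought among 12217 genes by Pearson's r of log2 values less the mean of the line, over 12 libraries. The likeness is given as a description, over libraries that share their vector, line and depth. For PTGS2 the closest were NTN4, MAP7 and ALDH1A3 (r = 0.996 for each), with log2 differences in H1975 of -1.73, -2.02 and -3.50. For PTGES they were LY6E (0.994), E2F2 (0.992) and RABL6 (0.987), and for HPGD FAM76B (0.977), MDFIC (0.969) and MCCC2 (0.963). The members with small differences had looser matches, down to CCDC174 (0.833), CCZ1B (0.805) and LIN7B (0.805) for PTGER4.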

How the data were processed

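The authors deposited 1 table of FPKM values (fragments per gene length and library size) with 1 column for each of the 12 libraries. The build named in the submitters' processing notes is GRCh38.p13. For the aligner, counting tool, annotation and strand setting, the status is: not given in the sources used here. Per the labels' protocols, TRIZOL served for RNA extraction and a SMARTER kit for the libraries. Of the table's entries, 27 whose names had become calendar dates were left out, which left 20003 genes, of which 3383 had no value in HCC827 and 3339 none in H1975. All 41 other pathway genes were found in the table, PLAAT3, PRXL2B and PTGR3 under older symbols.

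Genes that reached 1 FPKM in 2 libraries or more were fitted as log2(FPKM + 1) with limma 3.58.1 in R 4.3.3 (1 mean per group, spread shared by the 6 groups, trended prior variance). ZNF263 was compared with control within each line, the difference was compared between lines with an F test, and p-values were adjusted by Benjamini and Hochberg over all genes tested. The fit was tested on simulated data. The members and lists were chosen with earlier results of these data known. Named were the 7 members, up to 30 genes of the lists called in at least 1 line with the largest log2 difference, the 3 genes most like each member, 6 cell markers and ZNF263.

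Library totals are not in the table, so reads were recovered as the smallest whole numbers that fit a gene's 4 values in a line, within 0.003 reads and up to 20000 reads. Of 400 genes drawn per line this worked for 99.2% or more in each line (99.25, 99.75 and 99.25), and for 17.8% or less when values were shuffled (17.25, 17.75 and 17.5). The worth of 1 read kept 1 ratio between HCC827 and H1975 for 6 members (1.911), but for these varied between PC9 and HCC827 from 0.505 to 0.92. For PTGER2 the ratio of PC9 to HCC827 was 1.82, so its PC9 read numbers may be too small by a common factor, which was not corrected. No source used here states the gene lengths. For PTGER2 in H1975, the read numbers were multiplied by 3 to keep that ratio. Read numbers speak of counting error only, and the limit for a count of 0 was set at 3 reads. Gene positions are from GENCODE on GRCh38, and upstream sequences from RefSeq on GRCh38.p14, matched by symbol for 7 of 7 members. Alternatives were another pseudocount (0.1), a filter of 5 FPKM or none, 2 scalings, a fit on each line alone, a replicate block, leaving out each library, and subtracting the median of the 20 nearest genes.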

Additional observations from a re-analysis of the deposited data

Results flagged for a closer look

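The log2 difference of PTGS2 between ZNF263 and control was -0.566 in PC9, 0.293 in HCC827 and -3.66 in H1975. The value in HCC827, the only one above 0, was not called. Leaving out 1 library at a time, it ranged from 0.12 to 0.46. In PC9 and H1975 both ZNF263 libraries lay below both controls, and in HCC827 both lay above. The groups of HCC827 did not overlap, in either direction, for 53.9% of all genes tested. That contrast between lines was not tested, because the gene was chosen with its differences known.

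Among the other genes named, the difference varied between lines by limma's F test for 28 of 30. These 30 were chosen for large called differences, most of them in H1975, which favours that outcome, so nothing is read from the count. Every adjusted p in the lists that follow comes from that F test. In the pathway itself, in order of that p, they were AKR1C3 (3.61e-10), AKR1B1 (1.09e-08), MGLL (2.34e-08), DAGLA (5.10e-06), ACSL4 (6.61e-06), PTGR1 (3.29e-05), PTGR2 (7.57e-05), PLA2G4A (0.00182) and PTGR3 (0.00623). MGLL, which supplies arachidonic acid, was higher in PC9 and lower in H1975, and DAGLA was lower in HCC827 and higher in H1975. In the lipoxygenase branch the value was 2.67e-07 for ALOXE3.

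Among genes of the cyclic AMP relay, which EP2 and EP4 feed, the values were 3.32e-08 for PKIB, 1.09e-08 for AKAP12, 1.43e-07 for PDE7A, 1.01e-06 for PDE4A, 3.20e-05 for PRKACA and 0.000129 for ATF1. PKIB was lower in all 3 lines by differing amounts, while AKAP12, PDE7A and PDE4A were called in opposite directions in different lines. For genes induced by cyclic AMP they were 3.15e-06 for AREG, 9.57e-05 for SIK1, 0.00453 for GEM and 0.0189 for RGS2.

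Among regulators, the values were 1.51e-07 for IL1A, 3.78e-06 for CEBPD and 0.000832 for EGR1. They were 3.80e-08 for FOXA2, 1.86e-05 for ZEB1, 5.23e-05 for FOXA1, 0.00287 for TGFB1 and 0.00559 for SNAI2. FOXA1 and FOXA2 were called higher in HCC827 and lower in H1975.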

How the results depend on the processing

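Under the alternatives tried, no difference that was called changed direction, and PTGS2 in H1975 ranged from -3.83 (log2 difference with 0.1 FPKM added) to -3.42 (less the median of neighbouring genes). Calls of 4 member values, which are descriptions and not tests, depended on the setting. HPGD in HCC827 was not called with 0.1 FPKM added (0.45) or in a fit on that line alone. Leaving out 1 library at a time, it ranged from 0.32 to 0.57. PTGS2 in HCC827 was called with a filter of 5 FPKM (0.29). PTGES in PC9 was called with 0.1 FPKM added (0.31) or with the replicate block. PTGES2 in HCC827 was called with the replicate block (-0.19). Without HCC827 control replicate 2, PTGS2 in that line was 0.46 and PTGES2 was -0.32. HPGD in H1975 was 0.76 with 0.1 FPKM added. With limma fitted on a line's 4 libraries alone, 407 genes were called in PC9 and 634 in HCC827, against 1430 and 2386, and of the other pathway genes 0 in PC9 (of 24 tested, 8 had an unadjusted p under 0.05) and 1 in HCC827, against 4 and 3. Of the genes named, that fit lost MGLL, PLA2G4A and PTGR1 in PC9 and AKR1C3, SNAI2, AKAP12, DAGLA, EGR1, FOXA1, FOXA2, GEM and PDE7A in HCC827 (adjusted p from 0.0624 to 0.171). The pathway count was also 2 in PC9 and 1 in HCC827 with 0.1 FPKM added, 1 in HCC827 with a filter of 5 FPKM, and 2 in PC9 with no filter. Leaving out 1 library at a time, all genes called ranged from 591 to 1900 in PC9 and from 1082 to 3109 in HCC827, and pathway genes called in PC9 from 0 to 5. Each PC9 library moved that line's counts by over 1.5 times: 763 genes and 2 pathway genes were called without control replicate 1, 591 and 0 without control replicate 2 (6 with an unadjusted p under 0.05), 726 and 1 without ZNF263 replicate 1, and 854 and 2 without ZNF263 replicate 2. In HCC827, 1082 genes were called without ZNF263 replicate 1. H1975 counts stayed between 6886 and 8233, and 13 to 16 of the pathway genes. The cause of these shifts was not tested. In HCC827 the share of calls that were higher was 66.9% for the deposited scale, 45.0% after scaling by the median of ratios and 50.5% after quantile normalization. The median-of-ratios fit gave HPGD there 0.38 and PTGS2 0.24.

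The replicate numbers are not stated to pair the samples, and deviations of same-numbered libraries correlated by 0.04 in PC9, 0.09 in HCC827 and -0.04 in H1975. With the replicate block, 1364, 2262 and 7850 genes and 4, 3 and 15 other pathway genes were called, and FOXA1 (adjusted p = 0.0526) and DAGLA (0.0523) in HCC827 were no longer called by limma. Depth limits PTGER2 in H1975 and PTGS1 outside HCC827, which rest on 22 reads or fewer in a library. PTGER2 in PC9 was also low, but its read numbers there are known only up to a common factor.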
